A study of Mus musculus with 8 samples.

Results

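Glucose injected into the vein was compared with phosphate-buffered saline (PBS) in LSK cells, the Lineage- Sca-1+ c-Kit+ fraction of mouse bone marrow in which blood stem cells and multipotent progenitors lie. The comparison used 4 of the 8 RNA-seq libraries of the series. They were the 2 glucose libraries (G-A and G-B, called glucose 1 and glucose 2) and the 2 PBS libraries P-J and P-K (called PBS J and PBS K, together PBS J/K, labelled replicates 3 and 4), picked because their columns lack a tag that PBS H and PBS I (together PBS H/I, replicates 1 and 2) and the libraries of glucose with lipid carry. The series says that each treatment had its own PBS controls but not which these were, so pairing PBS J/K with glucose is an inference from names. PBS H/I are therefore given as well. The donors were C57BL/6 males aged 12 to 13 weeks, fasted overnight for over 14 hours before injection. Glucose was given at 2 g/kg for 7 days, control mice received PBS, and marrow from femurs and tibias was taken on day 8. Each RNA extract was made from roughly 10000 sorted cells. The libraries are labelled biological replicates, but the labels do not say whether each came from 1 mouse or from a pool, and every p-value here measures only the spread between these libraries.

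As background, haematopoietic stem cells are mostly quiescent, draw much of their energy from glycolysis, and hold back pyruvate from the mitochondria through the pyruvate dehydrogenase kinases. Leaving quiescence is marked by more ribosome production, mitochondrial respiration and DNA replication. Immediate early genes such as Fos, Egr1 and Nr4a1 are switched on within minutes by growth factors, cyclic AMP, stress or the handling of cells, and among their companions are genes whose products end the signal again, such as dual-specificity phosphatases, salt-inducible kinases and inhibitors of NF-kB.

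The libraries were close in size, with the glucose libraries the largest by estimate, and held the surface genes of the sort. Values were FPKM, fragments per kilobase of transcript and per unit of sequencing depth, so levels are per length. Depth is known only as an estimate from the smallest steps between values. It was 7.41 and 6.74 M (mega) fragments for glucose 1 and 2, 6.1 and 6.05 M for PBS J/K and 6.39 and 6.3 M for PBS H/I. Between 11186 and 11432 genes reached 1 FPKM in the 6 glucose and PBS libraries. Kit stood at 174 and 198 FPKM with glucose, 166 and 169 in PBS J/K and 192 and 170.3 in PBS H/I. Ly6a, which encodes Sca-1, stood at 351 and 418 against 299 and 345, with 295 and 338 in PBS H/I. All 9 genes listed for the LSK gate were found in every library. Pax5, a defining B cell factor, was at 0 in these 6 libraries, and the summed level of T cell markers was at most 5.07 FPKM. The summed level of 6 neutrophil markers was 146 and 216 FPKM after glucose, 421 in PBS J, 241 in PBS K and 139 and 194 in PBS H/I. PBS J stood apart from the glucose libraries more than PBS K did, with Pearson correlations across genes of 0.9535 and 0.9490 against 0.9616 and 0.9635.

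A small number of genes rose after glucose, and no messenger RNA was called lower. Of 11931 genes tested, 11 were higher at an adjusted p of 0.05 in limma (0.0922% of genes) and 1 was lower (0.00838%). The higher genes were Nr4a1, Plk2, Btg2, Cdkn1a, Sik1, Dusp5, Nfkbiz, Cd69, Ppp1r15a, the histone gene Hist1h2bc and the microRNA gene Mir5107, and the lower gene was the microRNA gene Mir3061. At an unadjusted p under 0.05 in limma, 765 genes were higher and 1007 were lower, called genes included. Fold changes are differences of mean log2(FPKM + 1), glucose minus PBS J/K, and understate the change of low genes. Their 5th and 95th percentiles over all genes were -0.46 and 0.62, and their median was -0.0001.

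**Figure D1:**
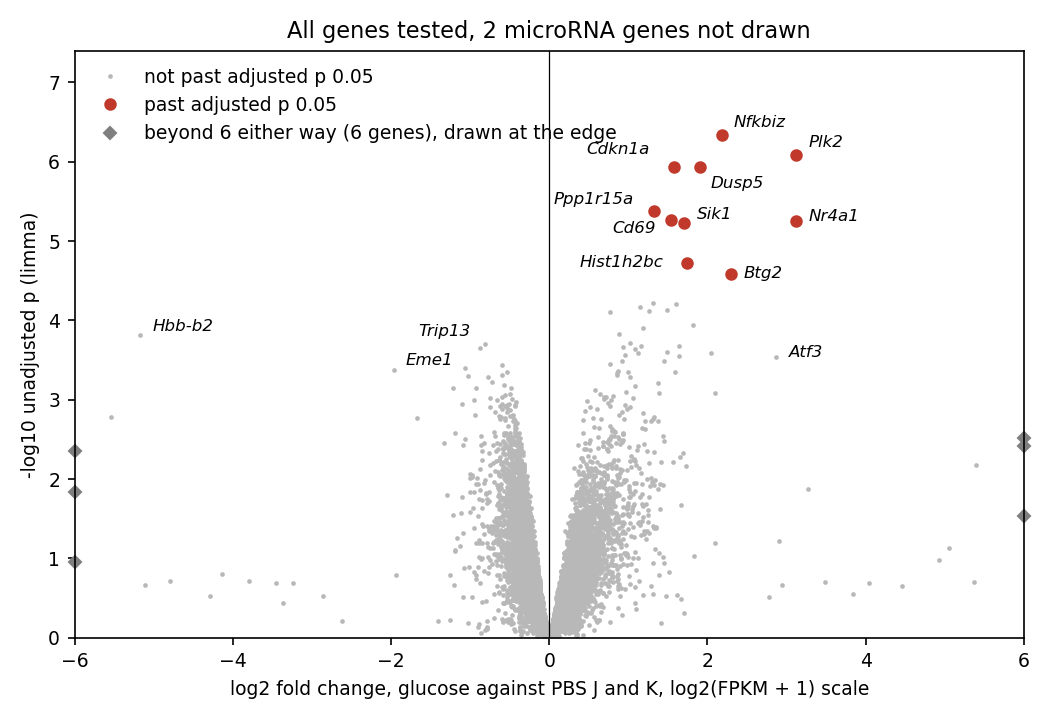
Each grey point is 1 gene, with its log2 fold change (glucose against PBS J/K) on the horizontal axis and the -log10 of its unadjusted limma p on the vertical axis. The 10 red points are the genes other than microRNAs past an adjusted p of 0.05, and all lie to the right of 0. The 6 genes with a change beyond 6 either way are drawn at the edge, and Mir5107 and Mir3061 are not drawn.

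The largest called changes among messenger RNAs were those of Nr4a1 and Plk2. Nr4a1, an orphan nuclear receptor of the immediate early class, stood at 304 and 177 FPKM in glucose 1 and 2 and at 24.8 and 27.1 FPKM in PBS J/K, beside 47.0 and 28.3 in PBS H/I. Both glucose libraries lay far above all 4 PBS libraries, and the pairs did not overlap. The log2 fold change of Nr4a1 was 3.12 with an SE of 0.28 (adjusted p = 0.00699 in limma), though it was not called without PBS J. Plk2, a polo-like kinase known as a p53 target and as a brake on cell division, stood at 72.9 and 54.9 FPKM against 5.28 and 7.66, and at 14.5 and 18.1 in PBS H/I. It rose by 3.12 ± 0.22 (log2 fold change ± SE, as in what follows, adjusted p = 0.00234 in limma), and by 1.90 when PBS H/I served as controls, so the size but not the call depended on the control pair.

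Other called genes restrain the cell cycle. Cdkn1a, which encodes the cyclin-dependent kinase inhibitor p21, stood at 57.1 and 54.4 FPKM after glucose, at 16.6 and 19.6 in PBS J/K and at 25.8 and 25.7 in PBS H/I. Each pair agreed closely within itself, and glucose was the highest of the 3. Cdkn1a rose by 1.58 ± 0.12 (adjusted p = 0.00234 in limma). Btg2, an antiproliferative gene that promotes mRNA decay, stood at 65.8 and 77.2 FPKM against 9.95 and 18.8, with 24.3 and 22.4 in PBS H/I. It rose by 2.30 ± 0.26 (adjusted p = 0.0257 in limma), but with PBS H/I as controls its change of 1.57 did not pass (adjusted p = 0.206). Btg2 was called under 9 of 17 other settings, and not without glucose 1, glucose 2, PBS H or PBS I.

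A further group of called genes acts on signalling or marks activated cells. Dusp5, a nuclear phosphatase that switches off ERK, stood at 145 and 115 FPKM after glucose, 33.1 and 34.5 in PBS J/K and 43.9 and 41.6 in PBS H/I, a rise of 1.91 ± 0.14 (adjusted p = 0.00234 in limma). Sik1, a salt-inducible kinase that is itself induced by cyclic AMP and restrains CREB coactivators, stood at 46.1 and 36.9 FPKM against 11.3 and 12.7, with 15.3 and 12.6 in PBS H/I. Nfkbiz, an atypical nuclear member of the family of NF-kB inhibitors, stood at 39.2 and 34.1 FPKM against 7.37 and 7.24, with 16.2 and 13.2 in PBS H/I. For these 3 genes both glucose libraries were above every PBS library. Sik1 rose by 1.70 ± 0.16 (adjusted p = 0.00699 in limma) and Nfkbiz by 2.18 ± 0.14 (adjusted p = 0.00182). Sik1 was not called without glucose 1 or without PBS J.

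Cd69, an early activation marker that also keeps cells in tissue by removing the sphingosine 1-phosphate receptor, stood at 373 and 311 FPKM after glucose, 108 and 126 in PBS J/K and 156 and 138 in PBS H/I. It rose by 1.53 ± 0.14 (adjusted p = 0.00699 in limma). Ppp1r15a, or GADD34, which reverses the block on translation made by the integrated stress response, stood at 154 and 159 FPKM against 58.1 and 66.6, with 102 and 96.8 in PBS H/I. It rose by 1.32 ± 0.12 (adjusted p = 0.00699 in limma), and by 0.65 without passing when PBS H/I were the controls. Neither gene was called without glucose 1 or without PBS J, and Ppp1r15a was also not called without glucose 2.

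Hist1h2bc differed from the other called genes in its order across PBS pairs. This histone H2B gene stood at 107 and 77.5 FPKM with glucose and at 22.6 and 31.0 in PBS J/K, but at 153 and 140 in PBS H/I. Glucose thus lay between the PBS pairs. It rose by 1.75 ± 0.19 against PBS J/K (adjusted p = 0.0203 in limma), its change against PBS H/I was -0.68, and it was called under 8 of 17 other settings, not without glucose 1, PBS H, PBS I or PBS J. Of the 10 called genes that are not microRNAs, 9 lay above all 4 PBS libraries, beside 8.47% of all genes, and Hist1h2bc was the exception. The calls were made against PBS J/K, so only the place of PBS H/I was free in this count. Plk2, Cdkn1a, Dusp5 and Nfkbiz were called under each of the 17 other settings tried. By GENCODE, Dusp5 shares its place with the antisense gene AC137853.2, Cdkn1a with AC167363.2 and Ppp1r15a with Tulp2 on the other strand, and no source used here says that fragments were counted by strand. Tulp2 itself was at or below 0.439 FPKM in these libraries.

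**Figure D2:**
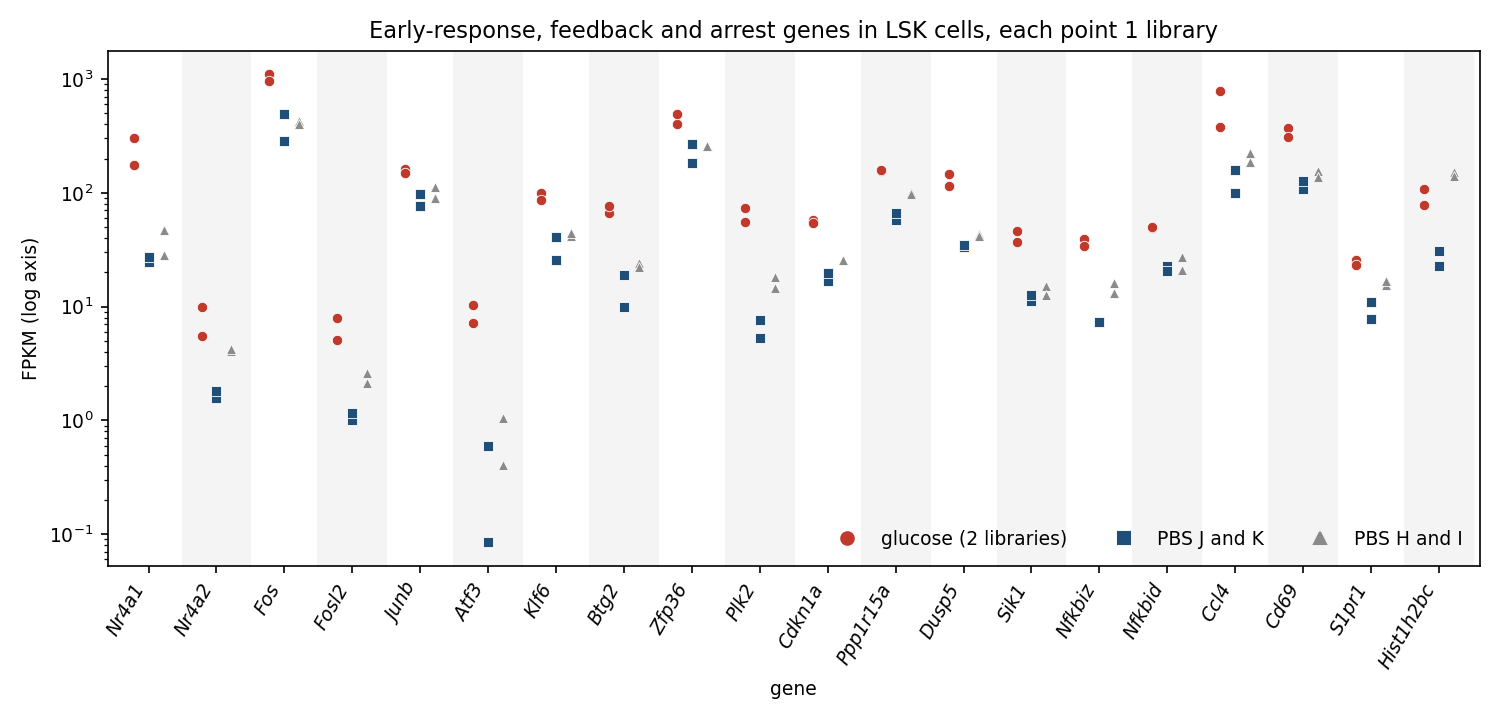
Each point is the FPKM of 1 gene (horizontal axis) in 1 library, on a log axis, for glucose (circles), PBS J/K (squares) and PBS H/I (triangles). For 19 of the 20 genes drawn both glucose points lie above all PBS points, beside 8.47% of all genes, and Hist1h2bc is the exception. The genes are the 10 that passed and 10 picked from the named ones that did not, so the count describes only the genes drawn.

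The 10 called genes were set against promoter sequence, since several of them are textbook targets of CREB, a factor that binds the cyclic AMP response element. RefSeq promoter entries on build GRCm38.p6 matched 6 of them, Nr4a1, Plk2, Btg2, Cdkn1a, Dusp5 and Ppp1r15a, and the others were Sik1, Nfkbiz, Hist1h2bc and Cd69. In the 250 bases before the start, the full element TGACGTCA was found in Plk2, Btg2 and Ppp1r15a. Of the 8509 tested genes with an entry 3.15% held it, as did 1.55% of all 32851 windows. Its shorter core TGACG, searched on both strands and contained in the full element, was found in 5 of the 6 genes, against 31.3% of the tested genes and 17.8% of all windows. The stretches are printed 5′ to 3′ on the gene's strand with each full element or core in capitals (CGTCA is the core on the other strand). They span chr13:110394944-110395043 (+) for Plk2, chr1:134079256-134079355 (-) for Btg2, chr7:45526269-45526368 (-) for Ppp1r15a, chr15:101266596-101266845 (+) for Nr4a1 and chr19:53529025-53529124 (+) for Dusp5.
Plk2: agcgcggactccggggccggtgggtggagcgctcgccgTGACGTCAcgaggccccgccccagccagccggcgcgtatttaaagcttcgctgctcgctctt
Btg2: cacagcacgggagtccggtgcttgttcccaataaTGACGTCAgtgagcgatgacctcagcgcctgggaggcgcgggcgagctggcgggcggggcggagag
Ppp1r15a: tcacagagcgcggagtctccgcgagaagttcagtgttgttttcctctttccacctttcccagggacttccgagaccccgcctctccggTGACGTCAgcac
Nr4a1: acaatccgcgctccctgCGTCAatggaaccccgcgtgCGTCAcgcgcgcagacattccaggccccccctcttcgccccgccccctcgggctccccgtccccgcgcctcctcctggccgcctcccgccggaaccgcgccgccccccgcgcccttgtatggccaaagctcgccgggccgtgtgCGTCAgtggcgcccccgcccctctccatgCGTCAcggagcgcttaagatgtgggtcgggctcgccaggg
Dusp5: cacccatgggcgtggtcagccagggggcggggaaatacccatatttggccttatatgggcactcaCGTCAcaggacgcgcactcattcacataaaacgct
The full element began 62 bases before the start in Plk2, 166 in Btg2 and 12 in Ppp1r15a, counting the base next to the start as -1. Nr4a1 held 4 cores on the other strand and no full element. Dusp5 held 1 core and a pair of CArG boxes, the serum response element. At least 1 such box was in 1.43% of tested genes and 1.47% of all windows. No AP-1 element (TGANTCA, in 5.42% of tested genes and 6.75% of windows) and no E-box (CACGTG, in 10.2% and 6.02%) was among these letters in the 6 genes. A match describes the letters only, and these genes were too few and chosen by their change, so no test was made.

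Most other tested members of the AP-1 and NR4A families leaned the same way without passing. AP-1 is a dimer of Fos, Jun and Atf proteins that carries growth and stress signals to promoters. Of 13 tested members of the AP-1 list 0 passed. The change was above 0 in 10 and below 0 in 3, with a range from -1.19 to 2.87. Both glucose libraries lay above both PBS J/K libraries in 9 and below both in 1, beside 22.3% and 24.8% of all genes. In 8 they lay above all 4 PBS libraries, beside 8.47% of all genes. The median change of the list was 0.48, and 0.50 against PBS H/I. Fos stood at 1102 and 951 FPKM after glucose, 285 and 492 in PBS J/K and 430 and 400.4 in PBS H/I (1.45 ± 0.24, adjusted p = 0.105 in limma). Atf3, a stress-induced repressor, was low in every library and stood at 10.2 and 7.24 FPKM against 0.596 and 0.0844, with 1.04 and 0.406 in PBS H/I. Its change of 2.87 ± 0.46 missed the threshold at an adjusted p of 0.0991 in limma, and passed under 4 of 17 other settings. Fosl2 had 1.82 ± 0.25 (adjusted p = 0.0706 in limma) and Junb 0.85 ± 0.15 (adjusted p = 0.119), and Jun had 0.62 and Fosb 0.48. In the NR4A family Nr4a2 stood at 9.85 and 5.51 FPKM against 1.57 and 1.80, with 4.07 and 4.27 in PBS H/I (1.65 ± 0.26, adjusted p = 0.0977 in limma), and Nr4a3 was under the level filter.

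Among the EGR and IER early genes, 9 of 10 tested members had a change above 0, 5 lay above and 1 below all 4 PBS libraries, beside 8.47% and 8.39% of all genes, and 0 passed, with a median of 0.64 (0.36 against PBS H/I). Csrnp1, a nuclear factor induced by Axin and cytokines, stood at 25.8 and 29.1 FPKM against 14.3 and 14.6, with 17.1 and 19.3 in PBS H/I (0.88 ± 0.13, adjusted p = 0.0836 in limma). Ier2 stood at 510 and 518 FPKM against 339 and 296, with 299.7 and 297 in PBS H/I. Egr1, the zinc-finger factor that keeps stem cells in place and quiet, stood at 345 and 344 FPKM against 268 and 172, with 226 and 210.3 in PBS H/I. The pairs did not overlap for these genes, yet the spread between PBS J/K was wide for Egr1, whose adjusted p was 0.288 in limma.

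Krüppel-like factors, many of which hold cells in quiescence, had a median change of 0.44 over 14 tested members (0.14 against PBS H/I), with 11 above 0 and 0 called. Klf6 stood at 99.4 and 87.0 FPKM after glucose, 25.9 and 40.7 in PBS J/K and 41.3 and 44.2 in PBS H/I (1.49 ± 0.20, adjusted p = 0.0524 in limma). Klf2, a factor of quiescence in lymphocytes, had 1.33 ± 0.28 (adjusted p = 0.176 in limma) and 0.67 against PBS H/I. The BTG and ZFP36 genes, which speed the decay of mRNAs, had changes above 0 in 7 of 7 tested members, 1 of them called (Btg2), with a median of 0.83 (0.34 against PBS H/I). Zfp36, which encodes tristetraprolin, stood at 405 and 496 FPKM against 181 and 267, with 256 and 257 in PBS H/I, above all 4 PBS libraries (1.02 ± 0.18, adjusted p = 0.121 in limma).

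Of 14 tested phosphatases and Sprouty or Spred inhibitors that damp ERK signalling, 1 passed (Dusp5), 7 lay above both PBS J/K libraries (22.3% of all genes) and 4 lay above all 4 PBS libraries (8.47% of all genes), with a median of 0.41 against PBS J/K, 0.25 without glucose 1 and 0.04 against PBS H/I. Dusp1, which acts on stress kinases, stood at 507 and 509 FPKM against 238 and 359, with 320 and 376 in PBS H/I. Of 21 genes of cyclic AMP and CREB signalling 1 passed (Sik1), and the median was 0.16 (-0.03 against PBS H/I and 0.10 without PBS K). Pde4b, which breaks down cyclic AMP, stood at 63.2 and 68.8 FPKM against 28.4 and 43.5, with 49.6 and 56.0 in PBS H/I, and had 0.89 ± 0.19 (adjusted p = 0.176 in limma).

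The genes of insulin and growth-factor signalling showed a spread of directions. Sgk1, a kinase downstream of insulin and glucocorticoids, stood at 36.8 and 24.9 FPKM after glucose, 4.88 and 8.84 in PBS J/K and 11.3 and 9.75 in PBS H/I. Glucose was above all 4 PBS libraries, and the change of 2.04 ± 0.32 did not pass (adjusted p = 0.097 in limma). Irs2, an insulin receptor substrate, stood at 3.86 and 5.22 FPKM against 1.82 and 1.92, but at 5.29 and 5.36 in PBS H/I, where its direction turned (-0.20). The receptor genes Insr and Igf1r had changes of 0.21 and 0.28, and the forkhead factors Foxo1 and Foxo3, which insulin signalling restrains, had 0.44 and 0.22. Of 23 tested genes 0 passed, 16 had a change above 0 and 7 below, and the median was 0.21 (-0.05 against PBS H/I). Both glucose libraries lay above all 4 PBS libraries in 4 genes and below all 4 in 3, beside 8.47% and 8.39% of all genes.

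Inflammatory signals also leaned upward, with 1 call. Of 20 NF-kB subunits and inhibitors 1 passed (Nfkbiz) and 12 lay above both PBS J/K libraries, beside 22.3% of all genes, with a median of 0.26 (0.14 against PBS H/I, and 0.11 without PBS J). Nfkbid, another atypical nuclear member of that family, stood at 48.6 and 49.9 FPKM against 22.8 and 20.6, with 27.4 and 20.9 in PBS H/I (1.15 ± 0.15, adjusted p = 0.0524 in limma). Of 17 tested chemokines and cytokines 16 had a change above 0 and 0 passed, with a median of 0.54 (0.28 against PBS H/I). Ccl4, a chemokine for monocytes and T cells, stood at 378 and 781 FPKM against 99.9 and 159, with 187 and 225 in PBS H/I. The glucose libraries differed from each other by more than the PBS libraries did, and its change of 2.10 ± 0.40 did not pass (adjusted p = 0.159 in limma). Interferon-stimulated genes had a median of 0.42 over 45 members, with 41 above 0 and 0 called, but 0.15 without PBS J, 0.24 without glucose 2, 0.66 without PBS K and 0.23 against PBS H/I. PBS J was low for this list, at -0.45 from the mean of the 6 libraries, and PBS K stood at 0.15.

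The integrated stress response was split within its own list. It is the pathway by which stress slows translation while the factor ATF4 switches on amino acid and rescue genes. Of 22 tested members 1 passed (Ppp1r15a), 8 lay above both PBS J/K libraries and 8 lay below, beside 22.3% and 24.8% of all genes, with a median of -0.13 (0.04 against PBS H/I, -0.05 without PBS J and -0.08 without glucose 1). Atf4 itself stood at 146 and 165 FPKM against 102 and 115, with 98.6 and 95.4 in PBS H/I (0.51 ± 0.10, adjusted p = 0.162 in limma). Ddit3, or CHOP, stood at 40.8 and 46.0 FPKM against 19.5 and 30.2, with 18 and 29.0 in PBS H/I. Psat1, a serine synthesis enzyme and ATF4 target, lay the other way at 88.6 and 93.6 FPKM against 135 and 104, with 93.1 and 92.5 in PBS H/I. Glucose was above all 4 PBS libraries for Atf4 and Ddit3.

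In the p53 list Plk2 and Cdkn1a were called and the other 25 of 27 members were not. The median was 0.12 (0.08 against PBS H/I, 0.04 without glucose 1, 0.06 without PBS J and 0.07 without PBS K), with 14 above and 13 below 0, and 10 lay above both PBS J/K libraries, beside 22.3% of all genes. Trp53inp1, a p53-induced nuclear protein, stood at 9.02 and 9.34 FPKM against 1.48 and 6.45, but at 10.1 and 13.6 in PBS H/I (1.24 ± 0.45, adjusted p = 0.278 in limma), so glucose lay between the PBS pairs. Trp53, the p53 gene, stood at 152 and 148 FPKM against 175 and 161, with 138 and 134 in PBS H/I, and Mdm2, a direct p53 target, at 36.7 and 39.0 against 29.5 and 32.3, with 33.3 and 31.0 in PBS H/I. Their changes were -0.16 ± 0.09 and 0.29 ± 0.11 (adjusted p = 0.444 and 0.309 in limma). Of the other inhibitors of cyclin-dependent kinases, Cdkn1b (p27) stood at 4.14 and 5.08 FPKM against 2.47 and 2.72, with 3.10 and 3.79 in PBS H/I, and Cdkn1c (p57), a marker of quiescent stem cells, at 10.2 and 11.3 against 9.54 and 9.51, with 6.19 and 8.89 in PBS H/I. Cdkn2a, the gene of p16 that marks senescence, was listed at 0 in all 6 libraries.

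Genes that handle glucose showed no called change. Glucose enters these cells through facilitative transporters, and the MondoA and ChREBP factors report its level by inducing Txnip and Arrdc4. Txnip stood at 138 and 178 FPKM after glucose, 132 and 161 in PBS J/K and 169 and 224 in PBS H/I. The ranges overlapped, and the change was 0.11 ± 0.21 (adjusted p = 0.855 in limma). Arrdc4 stood at 10.8 and 10.7 FPKM against 16.5 and 14.2, with 12.4 and 13.1 in PBS H/I, so glucose was the lowest pair (-0.47 ± 0.16, adjusted p = 0.256 in limma). The transporter genes Slc2a1 and Slc2a3 had changes of -0.15 and -0.06, and the hexokinase genes Hk1 and Hk2 -0.27 and 0.23. Of 10 tested genes of glucose transport and sensing 0 passed, with a median of 0.06 that was -0.01 against PBS H/I, -0.05 without glucose 2 and 0.12 without glucose 1.

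Glycolysis genes had a median of -0.17 over 24 members (-0.12 against PBS H/I), with 19 below 0 and 0 called. Ldha, which turns pyruvate into lactate, stood at 808 and 761 FPKM with glucose and at 1298 and 974 in PBS J/K, but at 813 and 733 in PBS H/I. Tpi1, triose phosphate isomerase, stood at 365 and 331 FPKM against 503 and 416, with 353 and 350.5 in PBS H/I. For both enzymes glucose lay with PBS H/I, and PBS J was the highest library. Eno1 had -1.97 ± 0.33 (adjusted p = 0.119 in limma), but its value is uncertain beside the near-identical copy Gm5506, and the sum of both stood at 96.0 and 86.9 FPKM against 131 and 101, with 98 and 88.8 in PBS H/I.

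The gate between glycolysis and the mitochondria was also free of calls. Pdk2, a pyruvate dehydrogenase kinase, stood at 12.9 and 22.4 FPKM after glucose, 7.62 and 10.3 in PBS J/K and 12.0 and 15.2 in PBS H/I. It lay above PBS J/K but overlapped PBS H/I, and its change of 0.87 ± 0.26 did not pass (adjusted p = 0.237 in limma). Pdk1 and Pdk3 had 0.24 and -0.17, Pdk4 was under the level filter, and Pdha1, the regulated subunit of the complex, stood at 85.3 and 85.6 FPKM against 85.5 and 78.5, with 90.7 and 83.9 in PBS H/I. The list of 11 tested genes had a median of -0.07 (-0.01 against PBS H/I), which turned to 0.07 without PBS J and 0.06 without glucose 2.

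The median mitochondrial gene lay under PBS J/K and near PBS H/I in the glucose libraries. No member passed in any of these lists. Of 37 complex I subunits 33 had a change below 0, with a median of -0.23 (0.05 against PBS H/I), and both glucose libraries lay below both PBS J/K libraries in 27, beside 24.8% of all genes, and below all 4 PBS libraries in 5, beside 8.39%. The medians were -0.29 for 4 subunits of complex II, -0.28 for 9 of complex III, -0.31 for 15 of complex IV and -0.23 for 17 of complex V, and -0.15, -0.07, 0.05 and 0.03 against PBS H/I. Mitochondrial ribosomal proteins, which translate the mitochondrion's own messages, had -0.27 over 76 members (0.04 against PBS H/I), with 72 below 0. TCA cycle genes had -0.22 over 24 members (-0.03 against PBS H/I and -0.13 without PBS J). Without glucose 2 the median of complex IV was -0.21.

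Single subunits show the pattern. Ndufs6 of complex I stood at 149.7 and 158 FPKM after glucose, 222 and 212 in PBS J/K and 160.0 and 179.8 in PBS H/I (-0.49 ± 0.09, adjusted p = 0.159 in limma). Uqcr11 of complex III stood at 558 and 532 FPKM against 792 and 726, with 521 and 545 in PBS H/I. Cox6b1 of complex IV stood at 871 and 800.0 FPKM against 1108 and 1076, with 889 and 812 in PBS H/I. In Uqcr11 and Cox6b1 the glucose and PBS H/I values overlapped, and in all 3 genes PBS J/K were the high pair. Mrpl55, a protein of the large mitochondrial subunit, had -0.60 ± 0.10 (adjusted p = 0.111 in limma) and -0.06 against PBS H/I.

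**Figure D3:**
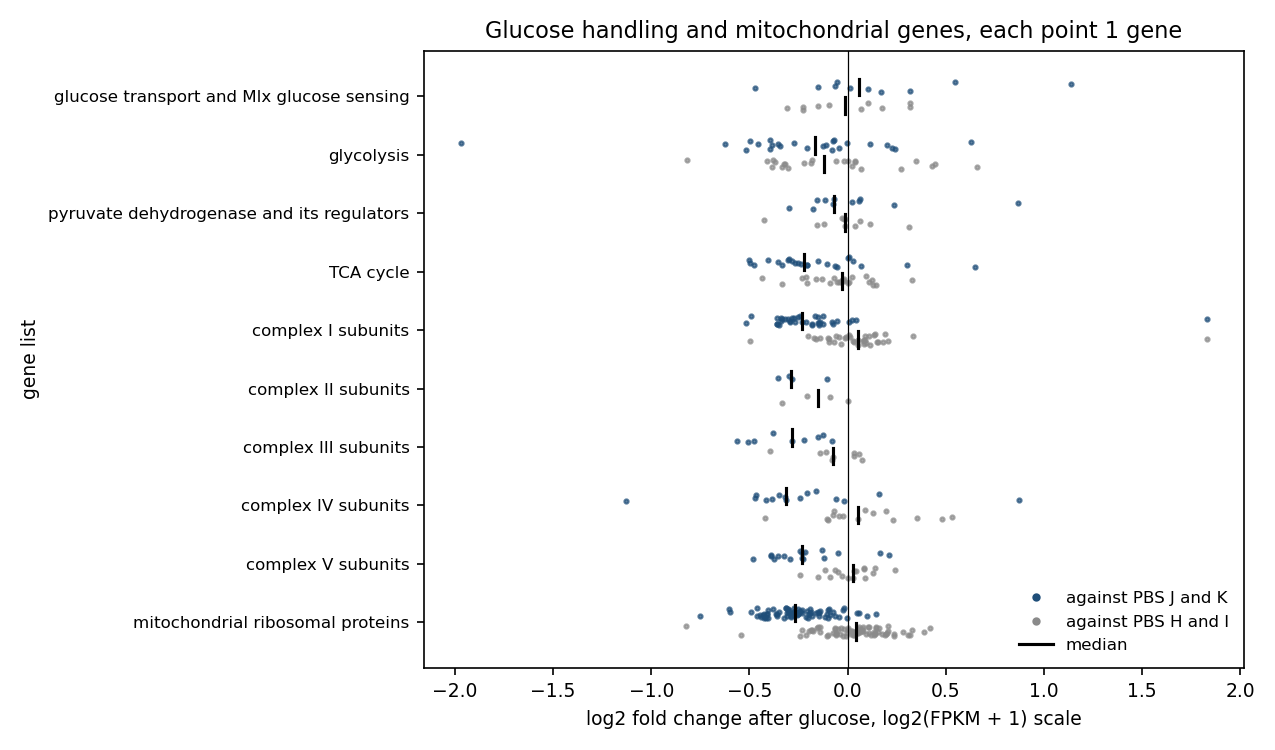
Each point is 1 tested gene, with its log2 fold change after glucose on the horizontal axis against PBS J/K (dark) or PBS H/I (grey), by gene list on the vertical axis, and black bars mark medians. Against PBS J/K the medians of complexes I to V lie between -0.31 and -0.23, and against PBS H/I between -0.15 and 0.05.

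Medians of genes that build and fold proteins were also below 0 against PBS J/K. Ribosome biogenesis genes had changes below 0 in 30 of 30 members, with a median of -0.38 (-0.01 against PBS H/I), and cytosolic tRNA synthetases in 20 of 20, with a median of -0.39 (-0.08 against PBS H/I). The chaperonin TRiC, which folds actin and tubulin, had a median of -0.40 over 8 subunits (-0.04 against PBS H/I), heat shock proteins -0.33 over 29 genes (-0.09), proteasome subunits -0.26 over 38 (0.06) and the unfolded protein response of the endoplasmic reticulum -0.25 over 24 (0.03). No member of these 6 lists passed. Both glucose libraries lay below all 4 PBS libraries in 5 ribosome biogenesis genes, 7 tRNA synthetases, 3 TRiC subunits and 7 heat shock genes. They did so in 5 proteasome subunits and 4 genes of the unfolded protein response, beside 8.39% of all genes. They lay above all 4 in 2 proteasome subunits and in 0 genes of the other lists, beside 8.47% of all genes. Nop2, an RNA methyltransferase of the nucleolus, stood at 50.8 and 42.1 FPKM after glucose, 85.8 and 73.6 in PBS J/K and 54.5 and 49.9 in PBS H/I (-0.77 ± 0.13, adjusted p = 0.121 in limma). Hspd1, the mitochondrial chaperonin Hsp60, stood at 79.1 and 79.8 FPKM against 147 and 118, with 88.7 and 91.4 in PBS H/I. Sdf2l1, a chaperone partner in the endoplasmic reticulum, stood at 61.9 and 76.1 FPKM against 165 and 133, with 67.7 and 73.9 in PBS H/I. In these genes PBS J was the highest library and PBS K the next.

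Cytosolic ribosomal proteins, in contrast with ribosome biogenesis, had a median of -0.05 over 79 members, -0.11 without PBS J, -0.08 without glucose 1, 0.001 without PBS K and 0.21 against PBS H/I. Myc, the factor that drives ribosome production, stood at 260.1 and 274 FPKM against 335 and 308, with 274 and 256 in PBS H/I (-0.27 ± 0.09, adjusted p = 0.267 in limma).

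List levels are given next for each library, and the cause of these differences was not tested. Each list's level was taken as the median over its members of log2(FPKM + 1) less the gene's mean over the 6 glucose and PBS libraries. Ribosome biogenesis stood at -0.12 and -0.15 after glucose, 0.37 in PBS J, 0.09 in PBS K and -0.09 and -0.18 in PBS H/I. For tRNA synthetases the levels were -0.15 and -0.15 after glucose, 0.38 in PBS J, 0.06 in PBS K and -0.02 and -0.13 in PBS H/I. The early lists had another order, as AP-1 stood at 0.40 and 0.20 after glucose, -0.36 and -0.07 in PBS J/K and -0.06 and -0.26 in PBS H/I. Both glucose libraries were above all 4 PBS libraries for AP-1, and PBS J was the highest library for ribosome biogenesis and tRNA synthetases. For tRNA synthetases both glucose libraries were the lowest of the 6, and for ribosome biogenesis PBS I was the lowest. PBS J was also far from the others in some early lists, with the BTG and ZFP36 genes at 0.41 and 0.24 after glucose, -0.69 in PBS J and -0.26 in PBS K, and Krüppel-like factors at 0.12 and 0.18, -0.37 and -0.14. Without PBS J the medians against PBS K alone were -0.24 for ribosome biogenesis, -0.22 for tRNA synthetases, -0.22 for TRiC, -0.16 for S phase and -0.14 for the unfolded protein response, while AP-1 had 0.37 and the BTG and ZFP36 genes 0.73. The PBS pairs also differed from each other, as both PBS H/I libraries lay above both PBS J/K libraries in 24.4% of genes and below in 25.3%.

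**Figure D4:**
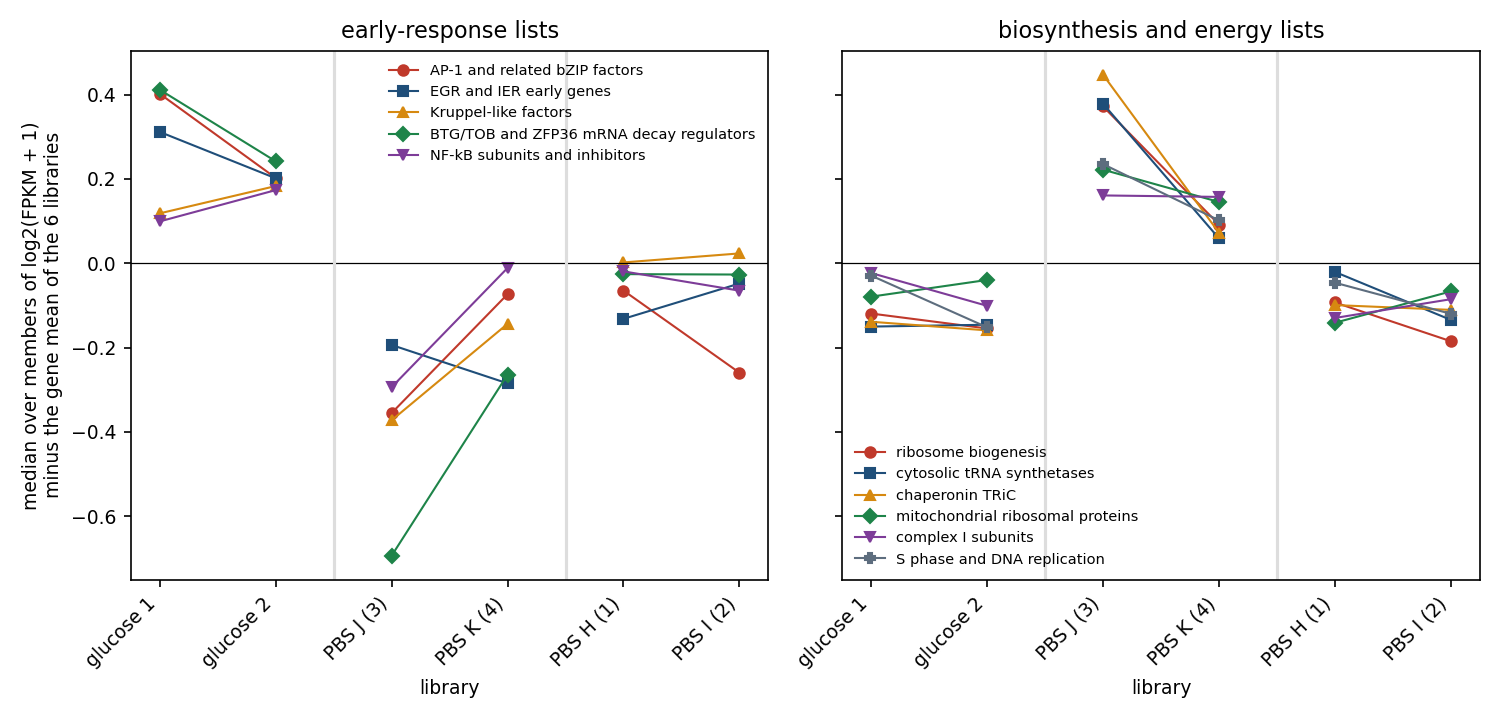
The vertical axis is a list's level in 1 library, as the median over members of log2(FPKM + 1) minus the gene's mean over 6 libraries, and the horizontal axis gives the libraries in pairs joined by lines. On the left, 5 early-response lists are highest in the glucose pair, and on the right, 6 biosynthesis and energy lists are highest in PBS J or level between PBS J/K.

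**Figure D5:**
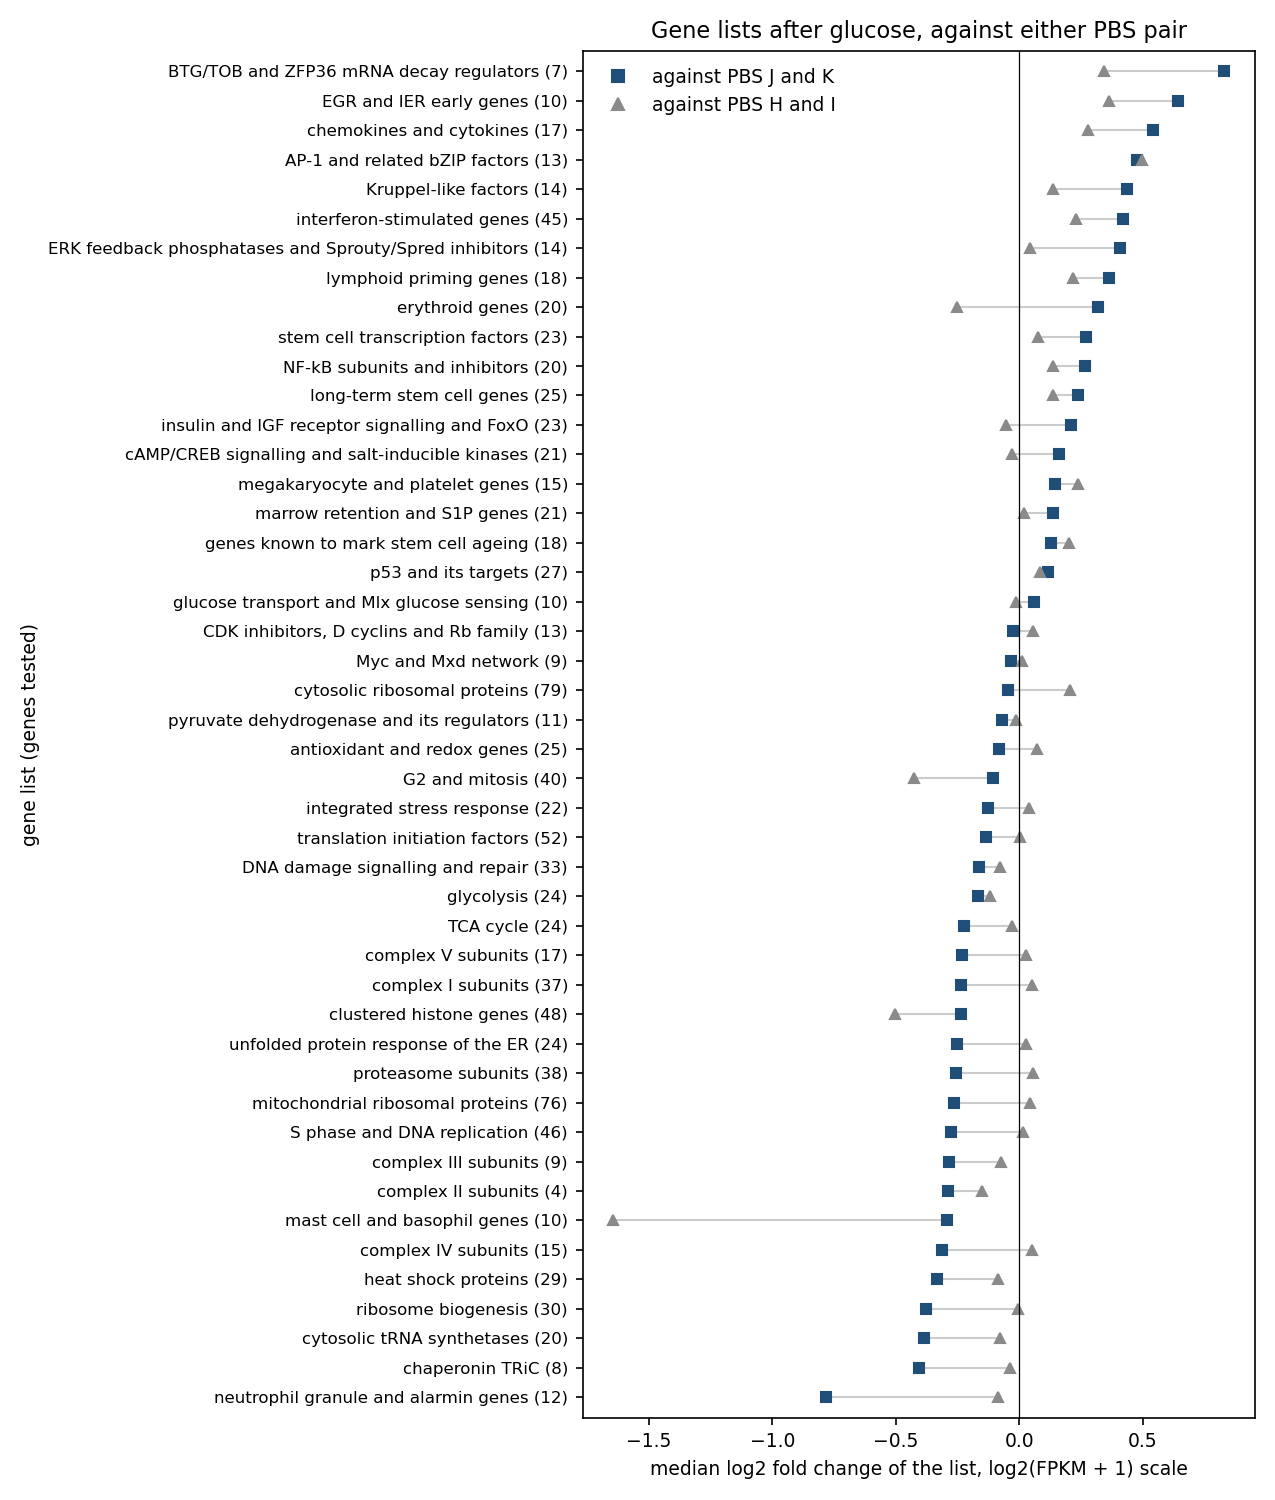
Median log2 fold change of 46 gene lists after glucose (horizontal axis, number of tested genes in brackets), against PBS J/K (squares) and against PBS H/I (triangles). AP-1 lies at 0.48 and 0.50 against the 2 control pairs, ribosome biogenesis moves from -0.38 to -0.01 and complex I from -0.23 to 0.05, and G2 and mitosis genes from -0.10 to -0.43.

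Level and transcript length moved with the comparison. In 5 equal bins of genes from low to high mean FPKM the median changes were 0.11, 0.10, 0.02, -0.05 and -0.12, and against PBS H/I they lay between -0.03 and 0.03. By transcript length, known for 90.3% of tested genes, the medians ran from -0.07 in the bin of shortest transcripts to 0.07 in the longest, and from 0.07 to -0.04 against PBS H/I. Biosynthesis and energy genes are abundant, with 34 of 37 complex I subunits, 15 of 20 tRNA synthetases and 18 of 30 ribosome biogenesis genes in the highest bin by level, and complex I transcripts are short (median 1046 bases, beside 3257 over tested genes). The part of level and length in these results was not tested. It also cannot be told apart in such bulk samples whether fewer cells of a type or less RNA per cell gave a lower value.

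Cell-cycle genes divided by phase. S phase and replication genes had changes below 0 in 45 of 46 members, with a median of -0.28, but 0.01 against PBS H/I, and 0 passed. Fen1, the flap nuclease that trims lagging-strand fragments, stood at 95.7 and 97.7 FPKM after glucose, 143 and 138 in PBS J/K and 101 and 108 in PBS H/I (-0.53 ± 0.09, adjusted p = 0.119 in limma). G2 and mitosis genes behaved the other way round, with a median of -0.10 against PBS J/K and -0.43 against PBS H/I over 40 members. In 14 of them both glucose libraries lay below all 4 PBS libraries, beside 8.39% of all genes, and 0 passed. Aurkb, the Aurora B kinase of chromosome segregation, stood at 61.2 and 65.3 FPKM after glucose against 87.4 and 91.8, with 84.3 and 89.4 in PBS H/I, and its change was -0.50 ± 0.10 (adjusted p = 0.176 in limma). Trip13, which remodels the mitotic checkpoint, stood at 27.1 and 26.2 FPKM against 50.3 and 44.8, with 35.4 and 41.6 in PBS H/I (-0.81 ± 0.12, adjusted p = 0.0945 in limma). For Aurkb and Trip13 all 4 PBS libraries were above both glucose libraries. The list's median against PBS J/K was 0.003 without PBS K, -0.03 without glucose 1, -0.24 without PBS J and -0.26 without glucose 2. Of 48 tested clustered histone genes 1 passed (Hist1h2bc) and 31 had a change below 0. The median was -0.24 (-0.50 against PBS H/I, -0.13 without glucose 1 and -0.14 without PBS J). How fully the SMART-Seq HT amplification captures histone messages was not tested, so this list is not read as a measure of S phase. The histone list was low, as its median gene had a mean of 3.46 FPKM over glucose and PBS J/K, and 19 of its 67 genes were under the level filter.

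Eme1, part of a nuclease that resolves DNA junctions, stood at 11.9 and 10.4 FPKM against 20.7 and 21.6, with 16 and 17.3 in PBS H/I, below all 4 PBS libraries (-0.87 ± 0.13, adjusted p = 0.0945 in limma). The list of 33 DNA repair genes had a median of -0.16 (-0.08 against PBS H/I and -0.07 without PBS J), with 29 below 0 and 0 called. Ccnd1, cyclin D1, which carries growth signals into the cell cycle, stood at 5.58 and 7.51 FPKM against 13.4 and 9.98, with 7.62 and 7.45 in PBS H/I. Its glucose values overlapped those of PBS H/I.

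The lowest adjusted p values on the lower side beyond these belonged to genes of mixed roles. Hbb-b2, a beta-globin gene, stood at 2.31 and 0.0321 FPKM after glucose against 110 and 38.9, with 85.6 and 103 in PBS H/I (-5.17 ± 0.76, adjusted p = 0.0836 in limma). Its near-identical copies can trade fragments, since Hbb-b1, Hbb-b2 and Beta-s together stood at 256 and 268 FPKM against 540 and 264, with 586 and 557 in PBS H/I, so its own value is uncertain. Hbb-b2 passed as lower under 4 of 17 other settings. Rab34, a small GTPase of vesicle transport, stood at 3.33 and 4.31 FPKM against 9.56 and 8.56, with 6.79 and 7.25 in PBS H/I (-1.07 ± 0.18, adjusted p = 0.119 in limma). Nans, which makes sialic acid, had -0.60 ± 0.10 (adjusted p = 0.12 in limma) and -0.16 against PBS H/I, and Spag4 had -1.22 ± 0.23 (adjusted p = 0.147). Rab34 lay below all 4 PBS libraries.

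On the higher side, S1pr1 and Stk17b came next to the threshold. S1pr1, the sphingosine 1-phosphate receptor that guides exit from tissue, stood at 25.9 and 23.4 FPKM after glucose, 7.84 and 11 in PBS J/K and 15.6 and 16.6 in PBS H/I. Its change was 1.31 ± 0.17 (adjusted p = 0.0523 in limma), beside the called change of its partner Cd69. Stk17b, a kinase linked to cell death, stood at 91.0 and 63.6 FPKM against 22.7 and 26.3, with 42.6 and 41.4 in PBS H/I (1.60 ± 0.20, adjusted p = 0.0523 in limma). Both genes were above all 4 PBS libraries. Mcl1, a survival gene of the BCL2 family, stood at 142 and 141 FPKM against 40.6 and 86.2, but at 133 and 112 in PBS H/I (1.24 ± 0.37, adjusted p = 0.23 in limma).

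Stem cell identity genes lay slightly above PBS J/K. Of 23 stem cell transcription factors 20 had a change above 0 and 0 passed, with a median of 0.27, 0.08 without PBS J and 0.08 against PBS H/I. Of 25 long-term stem cell genes 23 lay above 0 and 0 passed, with a median of 0.24 (0.14 against PBS H/I). Hlf, a factor of long-term stem cells, stood at 85.2 and 72.1 FPKM after glucose, 56.3 and 56.9 in PBS J/K and 67.1 and 77.2 in PBS H/I. Procr, the surface receptor EPCR, stood at 81.6 and 86.5 FPKM against 58.6 and 59.2, with 44.4 and 70.6 in PBS H/I, above all 4 PBS libraries (0.50 ± 0.25, adjusted p = 0.405 in limma). Hlf overlapped PBS H/I. The gate genes Kit, Ly6a and Cd34 had changes of 0.15, 0.25 and 0.03, and Cd48 and Slamf1, which part stem cells from progenitors, -0.15 and 0.24.

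Flt3, which marks lymphoid-primed progenitors, stood at 215 and 245 FPKM after glucose, 131 and 182 in PBS J/K and 167 and 169 in PBS H/I (0.57 ± 0.18, adjusted p = 0.251 in limma). Lymphoid priming genes had a median of 0.36 over 18 members (0.22 against PBS H/I), but 0.03 without PBS J and 0.55 without PBS K. Genes known to mark stem cell ageing had a median of 0.13 over 18 tested members (0.20 against PBS H/I, 0.28 without glucose 1, 0.24 without glucose 2 and 0.07 without PBS K), with 11 above 0 and 0 called.

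Genes of mature cells differed between PBS pairs or in PBS J alone. Erythroid genes had a median of 0.32 over 20 members, with 16 above 0 and 0 called, 0.15 without glucose 1 and -0.25 against PBS H/I. The neutrophil granule list had a median of -0.78 over 12 tested members, -0.22 without PBS J, -0.44 without glucose 1, -1.21 without PBS K and -0.08 against PBS H/I. S100a9 stood at 43.8 and 48.6 FPKM after glucose, 106 and 85.3 in PBS J/K and 34.9 and 52.3 in PBS H/I, with an SE of 2.18 on its change of -1.03, because the fit shares its spread with the libraries of glucose with lipid. Of 18 B and plasma cell genes in the data 12 were under the level filter. The 6 tested ones lay above both PBS J/K libraries, beside 22.3% of all genes, and 1 of them above all 4 PBS libraries, beside 8.47%. Igj, Bank1, Vpreb1 and Blnk were under 1 FPKM in both PBS J/K libraries, so they met the filter only through other libraries. Their place above PBS J/K was thus largely set by the filter, and nothing is drawn from this count. In this list 0 genes were called and the median was 0.74 (0.11 against PBS H/I), while Pax5 was at 0. Igj, the joining chain of antibodies, stood at 23.7 and 3.95 FPKM after glucose against 0 and 0.315, with 4.56 and 6.29 in PBS H/I. Mast cell and basophil genes had a median of -0.29 against PBS J/K, 0.26 without PBS J, -0.998 without PBS K, -0.16 without glucose 1 and -1.64 against PBS H/I. Their marker Tpsb2 stood at 1.52 and 1.70 FPKM after glucose, 16.6 in PBS J, 1.19 in PBS K and 45.6 and 43.4 in PBS H/I. The part of such cells in the changes of other genes was not tested.

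The 2 microRNA genes were each present in some libraries only. Mir3061 was listed at 469 and 465 FPKM in PBS J/K and at 0 in glucose and in PBS H/I, so no fold is given, and the call was an adjusted p of 6.37e-07 in limma. It lies on chromosome 11 (chr11:52126746-52126836 on GRCm38) within Ppp2ca, a phosphatase gene on the same strand. Ppp2ca itself stood at 303 and 292 FPKM with glucose and at 303 and 313 in PBS J/K, within 1 narrow range. The mature forms in RefSeq are printed with the seed, bases 2 to 8, in capitals, since the seed sets which messages a microRNA can pair with, and the arms do not share it.
mmu-miR-3061-5p: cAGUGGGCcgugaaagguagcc
mmu-miR-3061-3p: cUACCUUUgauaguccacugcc
FPKM of a microRNA gene in such cDNA libraries does not measure the mature form. Mir5107, within Cd74, had 539 and 605 FPKM in the glucose libraries and was listed at 0 in all 4 PBS libraries (adjusted p = 0.00057 in limma). Cd74, the invariant chain of MHC class II, stood at 281 and 232 FPKM after glucose, 121 and 281 in PBS J/K and 83.9 and 158 in PBS H/I, and its change of 0.47 ± 0.47 did not pass (adjusted p = 0.681 in limma).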

How the data were processed

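The deposited values are FPKM, 1 table per library, made by the authors with Cuffnorm 2.2.1, after alignment to mm10 by TopHat2 2.0.13 (Bowtie2 2.2.3; SAMtools 1.0), per the submitters' processing notes. The unit was read from the values and from Cuffnorm, since the headers do not state it. Cuffnorm rescales libraries, and a transcript taking much of a library lowers the others. Short RNA genes took 28.64% and 28.74% of the summed FPKM in glucose 1 and 2. Their share was 27.48% and 29.22% in PBS J/K, and 24.18% and 29.7% in PBS H/I. With these genes removed and values rescaled, the median change over all genes was 0.058. RNA was amplified with SMART-Seq HT and tagged with Nextera XT, per the labels' protocols.

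Of 23284 genes, the 11931 with at least 1 FPKM in at least 2 of the 8 libraries were tested as log2(FPKM + 1) with limma 3.58.1 in R 4.3.3 (mean-variance trend, all 8 libraries in 4 groups sharing 1 estimate of the spread, 4 residual degrees of freedom, Benjamini-Hochberg adjustment over all genes at 0.05). The smallest exact permutation p of 2 against 2 is 0.333, so single genes were tested only in that model. The script was checked on simulated data.

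The groups compared, their members and the 62 gene lists were chosen with earlier results of these data known. Named are the called genes, up to 12 per direction with the smallest p among separated genes with a mean of at least 3 FPKM, up to 4 per list, and genes of glucose use, early response and stem cell identity. Copies and host genes were named for a neighbour's result. Positions and overlaps come from GENCODE vM21, promoters and mature microRNAs from RefSeq. The alternatives were other controls, filters, pseudocount, scaling, fits and each library left out.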

Additional observations from a re-analysis of the deposited data

How the results depend on the processing

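No paired analysis was possible because the glucose libraries are numbered 1 and 2 and PBS J/K 3 and 4. Against 11 genes called higher, the count was 17 with a minimum of 5 FPKM, 18 with a pseudocount of 0.1, 23 with short RNA genes removed and values rescaled, and 7 without the mean-variance trend. It ranged from 7 (without glucose 1 or PBS J) to 27 (without PBS K or either library of glucose with lipid) when 1 library was left out, the lone sample then being assumed to vary like the other groups. Against 1 gene called lower, the count was 3 with all 4 PBS libraries as controls, 3 with only glucose and PBS J/K fitted, and 1 to 5 with 1 library left out. With PBS H/I as controls, 9 genes were higher, and the log2 fold change turned for Hist1h2bc (-0.68), Beta-s (-1.73), Foxo1 (-0.031), Irs2 (-0.20), Ldha (0.023), Myc (0.012), Pdha1 (-0.030), Pdk1 (-0.013), Ppp2ca (0.031), S100a9 (0.11), Slc2a1 (0.10), Trp53 (0.14), Trp53inp1 (-0.32), Txnip (-0.31) and Uqcr11 (0.032). With all 4 PBS libraries it turned for Beta-s (-0.22) and Txnip (-0.10), and with short RNA genes removed for Ppp2ca (0.0175) and Slc2a3 (0.0083). With 1 library left out, changes of both signs were found for Cd34 (-0.0698 to 0.14), Cd48 (-0.42 to 0.12), Cd74 (-0.14 to 1.07), Fosb (-0.0228 to 0.98), Foxo3 (-0.0882 to 0.52), Pdha1 (-0.0018 to 0.12), Slamf1 (-0.0716 to 0.55), Slc2a3 (-0.25 to 0.13), Tpsb2 (-2.75 to 0.25) and Txnip (-0.0796 to 0.29). Of these genes Hist1h2bc alone was called with PBS J/K as controls, and the cause was not tested. Of the named genes that did not pass, 17 passed under at least 1 other setting: Nfkbid under 9 of 17, S1pr1 under 7, Klf6 and Stk17b under 6, Atf3, Fosl2 and Hbb-b2 under 4, Sgk1 under 3, Fos, Beta-s and Sdf2l1 under 2, and Dusp1, Klf2, Pde4b, Tpsb2, Trp53inp1 and Zfp36 under 1. Depth is only estimated, so no counting interval is given.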
